A study of Sus scrofa with 6 samples.

Results

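The 9 genes described here encode regulators of DNA methylation and chromatin, and all lie on pig chromosome 2: DNMT1, UHRF1, MBD3, DOT1L, KMT5B, KDM2A, SMARCA4, CHD1 and HDAC3. The rule that selects them uses their names and location only, but the names were chosen with earlier results of these data known. They are 9 of 1652 genes that had enough counts to be tested, and 9 of 2707 chromosome 2 genes in the deposited tables; all 9 passed the filter on low counts. The 6 libraries were made from RNA of whole embryos at embryonic day 21. In the parthenogenetic group, 3 embryos (PA1 to PA3) grew from Landrace x Yorkshire x Duroc oocytes that were matured in vitro, activated by electric pulses and transferred to surrogate gilts, so they carry maternal genomes only. The 3 control embryos (CN1 to CN3), labelled as the same cross and untreated, were conceived by natural mating and carry genomes of both parents. Embryos of a group came from a pair of gilts and were picked as intact and of similar size, so littermates may be among them, and parental origin cannot be told apart from in vitro maturation and transfer. The smallest and largest sums of estimated counts were 3100284 (CN2) and 3573406 (PA1). Of these counts 99.6% to 99.7% lay on chromosome 2, so TPM (the per-library transcript abundance of Salmon) is here a length-corrected level relative almost entirely to that chromosome. The paternally expressed IGF2 matched the labels, with estimated counts from 2351 to 4719 among parthenotes against 107184 to 126288 among controls.

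DNA methylation is copied to a new strand after replication by DNMT1, the maintenance methyltransferase, which UHRF1 brings to hemimethylated sites. MBD3 is a subunit of the nucleosome remodelling and deacetylase complex NuRD. DOT1L and KMT5B add methyl groups to lysines of histones H3 and H4, and KDM2A, which binds unmethylated CpG DNA, removes them from histone H3. SMARCA4 (BRG1) is an ATPase of the SWI/SNF remodelling complexes, CHD1 is a remodeller that reads histone H3 methylation, and HDAC3 is the deacetylase of the NCoR/SMRT corepressor complexes. Methylation marks copied in this way keep the parental alleles of imprinted genes apart in mammalian embryos.

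In the Sscrofa11.1 genome 5 of the genes lie within 1 stretch of chromosome 2. From its start, these are DNMT1 (68981564 to 69040364, minus strand), SMARCA4 (69717175 to 69810301, plus strand), UHRF1 (73898061 to 73937727, minus strand), DOT1L (76339452 to 76401974, plus strand) and MBD3 (76913880 to 76923435, plus strand). KMT5B (4710510 to 4768237, plus strand) and KDM2A (5238690 to 5357799, minus strand) lie near the start of the chromosome, CHD1 at 105113149 to 105205303 (minus strand) and HDAC3 at 143273188 to 143287421 (minus strand).

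None of the 9 regulators differed between PA and CN embryos by the quasi-likelihood test of edgeR. At an adjusted p-value below 0.05, 0 of 9 passed, against 6.54% of all genes tested; 0 of 9 also passed with an absolute log2 fold change above 1, against 2.91% of all genes. At an unadjusted p-value below 0.05, edgeR and DESeq2 both gave 0 of 9, against 21.2% of all genes with edgeR. The log2 fold changes, PA over CN on normalised counts, ran from -0.06 (HDAC3) to 0.17 (KMT5B). As folds, the 95% intervals of all 9 genes lay between 0.843, the lower bound of HDAC3, and 1.3, the upper bound of KMT5B, each interval taken for its gene alone. The median standard error of the members was 0.089 on the log2 scale, against 0.139 over all genes tested. Among the 572 genes within the TPM range of the members it was 0.099. Of these genes, 10 were higher in PA and 16 lower at an adjusted p-value below 0.05 with edgeR. An unadjusted p-value below 0.05 was reached by 93, and 135 did not overlap between groups in normalised counts.

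**Figure D1:**
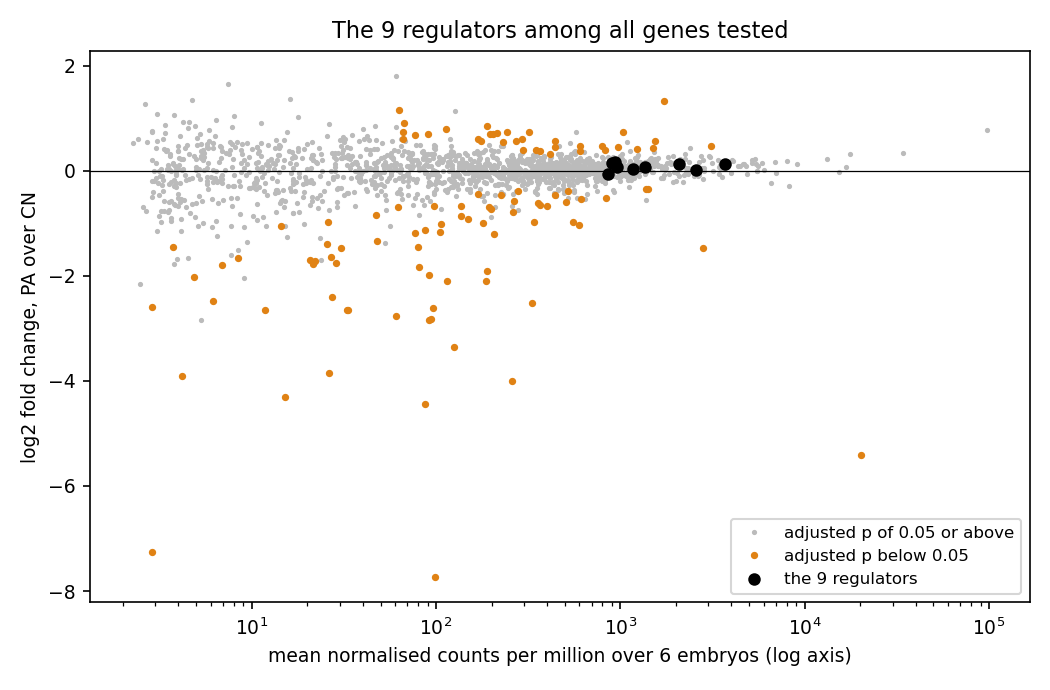
Log2 fold change (PA over CN) against mean normalised CPM on a log axis, for 1652 genes, with orange points for genes at an adjusted p-value below 0.05. The 9 regulators, in black, lie at high counts and between -0.06 and 0.17.

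The level of each gene in every embryo was plotted on the TPM scale, which corrects for length and so permits comparison between genes. Mean TPM over the 6 embryos fell from 1134 for SMARCA4 to 170 for CHD1. The order was SMARCA4, UHRF1, MBD3, HDAC3, DNMT1, KDM2A, KMT5B, DOT1L and CHD1. Neighbours SMARCA4 and UHRF1 kept this order in 4 of 6 embryos and KDM2A and KMT5B in 3 of 6, so these pairs did not differ beyond their spread. MBD3 exceeded HDAC3 in 5 of 6 embryos, and the other 5 neighbouring pairs kept their order in 6 of 6. The TPM ranges of PA and CN overlapped for every one of the 9 genes.

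**Figure D2:**
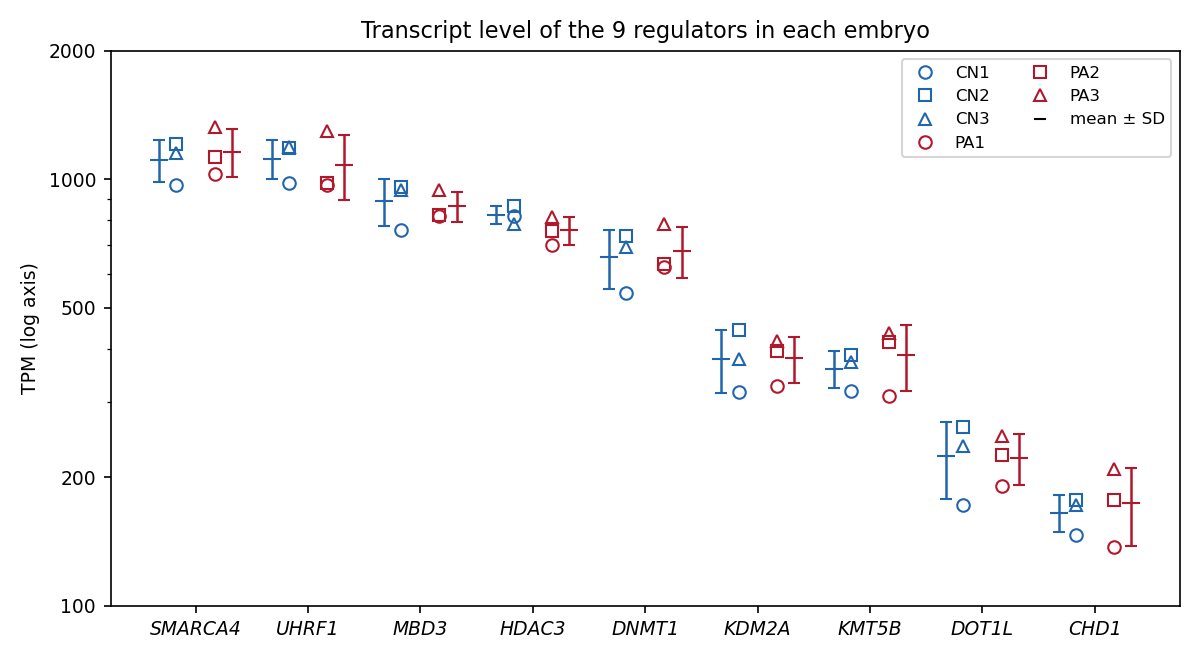
TPM on a log axis of the 9 regulators in the 3 CN embryos (blue) and 3 PA embryos (red), each embryo with its own symbol and each group with its mean ± SD. The groups overlap for every gene, PA1 is the lowest PA embryo for all 9 and PA3 the highest.

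Of the genes for DNA methylation, DNMT1 had 540, 736 and 694 TPM in CN1, CN2 and CN3 and 621, 632 and 785 TPM in PA1, PA2 and PA3. The lowest embryo was a control and the highest a parthenote, with the other 4 between them. Its log2 fold change was 0.12 (standard error 0.089, 95% interval -0.08 to 0.32, adjusted p = 0.485). It ranged from 0.066 without CN1 to 0.17 without CN3, and was 0.062 with library totals in place of TMM factors. UHRF1 was listed at 980, 1184 and 1188 TPM in CN and 967, 978 and 1297 TPM in PA. Here both extremes were parthenotes, and in TPM PA1 and PA2 lay beside CN1. The log2 fold change was 0.02 (standard error 0.091, 95% interval -0.19 to 0.23, adjusted p = 0.937). It ranged from -0.052 without PA3 to 0.079 without PA2, and was -0.041 with library totals. As UHRF1 acts with DNMT1, the ratio of the 2 TPM values was taken within each embryo. It was 1.81, 1.61 and 1.71 in CN and 1.56, 1.55 and 1.65 in PA. The groups overlapped at 1.61 and 1.65 (exact permutation test, two-sided, p = 0.2; 3 against 3 cannot go below 0.1).

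MBD3 had 758, 958 and 944 TPM in CN and 822, 822 and 945 TPM in PA. All 3 PA values lay within the CN range in TPM. In normalised CPM, PA1 at 1235 lay above the highest control, CN3 at 1215. The log2 fold change was 0.03 (standard error 0.077, 95% interval -0.14 to 0.21, adjusted p = 0.846). It ranged from 0.0020 without CN1 to 0.086 without CN3, and was -0.028 with library totals.

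Of the genes for histone methylation, DOT1L had 172, 262 and 237 TPM in CN and 191, 226 and 250 TPM in PA. The CN embryos bracketed the PA embryos. The log2 fold change was 0.06 (standard error 0.106, 95% interval -0.18 to 0.31, adjusted p = 0.780). It was -0.028 without CN1, the lowest embryo, 0.15 without CN2 and 0.0065 with library totals. KMT5B had 319, 387 and 373 TPM in CN and 310, 415 and 435 TPM in PA. In TPM, PA2 and PA3 were above every control and PA1 below them. In normalised CPM PA2 and PA3 were again above every control, but PA1 lay above CN1 (868 against 861). This was the largest fold change of the 9, at 0.17 (standard error 0.093, 95% interval -0.05 to 0.38, adjusted p = 0.365), and it ranged from 0.11 without PA2 (adjusted p = 0.698) to 0.26 without PA1 (adjusted p = 0.0972). The demethylase KDM2A had 316, 444 and 379 TPM in CN and 328, 395 and 418 TPM in PA. Both extremes were controls in TPM, but in normalised CPM the highest embryo was PA2 (1462 against 1460 in CN2). The log2 fold change was 0.07 (standard error 0.088, 95% interval -0.13 to 0.27, adjusted p = 0.682). It was 0.028 without CN1, 0.15 without CN2 and 0.015 with library totals.

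Of the remodellers, SMARCA4 had 971, 1207 and 1149 TPM in CN and 1028, 1127 and 1322 TPM in PA, which overlap. On the scale of normalised CPM (counts scaled to a common library size), SMARCA4 had 3431, 3604 and 3612 in CN and 3775, 3792 and 4085 in PA. It was the only one of the 9 whose groups did not overlap on that scale, against 28.3% of all genes tested. Its log2 fold change of 0.13 (standard error 0.075, 95% interval -0.04 to 0.30) did not pass the test (adjusted p = 0.376). It ranged from 0.11 to 0.16 with each embryo left out and was 0.073 with library totals. CHD1 had 146, 177 and 172 TPM in CN and 137, 177 and 209 TPM in PA. PA1 was the lowest and PA3 the highest of the 6. Its log2 fold change was 0.14 (standard error 0.10, 95% interval -0.09 to 0.37, adjusted p = 0.481). It ranged from 0.066 without PA3 (adjusted p = 0.798) to 0.24 without PA1 (adjusted p = 0.136), and was 0.085 with library totals.

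The deacetylase HDAC3 had 819, 865 and 785 TPM in CN and 702, 755 and 817 TPM in PA. In TPM, PA1 and PA2 lay below every control. On normalised CPM HDAC3 had 959, 856 and 818 in CN and 854, 842 and 837 in PA, with every PA value within the CN range. It alone had a negative log2 fold change, at -0.06 (standard error 0.083, 95% interval -0.25 to 0.13, adjusted p = 0.750), which became 0.021 without CN1 and -0.11 with library totals.

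The sign of these small differences depended on the scale and on single embryos. On normalised counts 8 of 9 log2 fold changes were above 0, against 53.0% of all genes tested, with a median of 0.07 against 0.02, and with library totals 6 of 9 were above 0. The median of the 9 rested on single embryos: without CN1 it was 0.028 against 0.027 over all genes, and without CN2 it was 0.15. On the TPM scale the ratio of the PA mean to the CN mean was above 1 for 5 genes and below 1 for 4, from 0.921 (HDAC3) to 1.07 (KMT5B). With TPM rescaled without the noncoding RNA H19, 8 of 9 ratios were above 1, as on normalised counts. The split also moved with single embryos, to 1 of 9 above 1 without CN1 or without PA3 and to 7 of 9 without CN2 or without PA1. The embryos of a group also differed from each other in a way that most of the genes shared. CN1 was the lowest control in normalised counts for 8 of 9 regulators, against 41.8% of all genes, and HDAC3 was the exception. In TPM, CN1 was also the lowest control for 8 of 9, against 68.1% of all genes. PA1 was the lowest parthenote in normalised counts for 5 of 9, against 34.5% of all genes. In TPM, PA1 was the lowest parthenote for 9 of 9, against 62.0% of all genes. H19 took 16.9% of the counts of PA1, against 8.44% and 10.2% in PA3 and PA2 and 6.88% to 7.74% in CN. With TPM rescaled without H19, PA1 was the lowest parthenote for 6 of 9 and PA2 for the other 3. The share over all genes was not taken on that scale.

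Over the 36 pairs of regulators the correlation of log2 normalised counts had a median of 0.50, against 0.0025 over all pairs of chromosome 2 genes. It was positive in 25 of the 36, against 50.2% of all pairs. All 8 pairs with HDAC3 were negative. These figures rested in part on single embryos, left out here after the data were seen. CN1 was the highest embryo for HDAC3, at 959 normalised CPM against 818 to 856 in the other 5, and without it 5 of the 8 HDAC3 pairs were negative and the median over the 36 was 0.13. Without PA3 the median was 0.21. These are descriptions over 6 points that share their libraries and their depth. CHD1 and KMT5B were most alike (r = 0.90), followed by DOT1L and KDM2A (r = 0.88), and both stayed at 0.76 or above with any 1 embryo left out. DOT1L and HDAC3 were most opposed (r = -0.88), but at -0.11 without CN1. Among 1540 genes compared, the gene most like each regulator was SEPT8 for DNMT1 (r = 0.96), SLC27A6 for UHRF1 (r = 0.95), LOC100517213 for MBD3 (r = 0.98), RFX2 for DOT1L (r = 0.98), MLLT1 for SMARCA4 (r = 0.98), TMEM132A for CHD1 (r = 0.96), TMEM216 for HDAC3 (r = 0.98), CRTC1 for KDM2A (r = 0.97) and PJA2 for KMT5B (r = 0.98). Ranks 2 and 3 were PBX4 and PTBP1 for DNMT1, ACCS and LMNB2 for UHRF1, AP1M1 and SEC24A for MBD3, FBN3 and ADGRL1 for DOT1L, NUP160 and ADGRV1 for SMARCA4, LOC110259669 and SRFBP1 for CHD1, THOC3 and FAM32A for HDAC3, RAB3A and LOC396905 for KDM2A, and MPEG1 and TCF7 for KMT5B. In none of these lists was another of the 9 among the first 3.

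Most of the 9 genes are expressed as several transcripts, and stretches that differ between coding forms of 4 genes are shown here because they set which protein is made. The sequences are from the Sscrofa11.1 genome with RefSeq transcripts, read 5′ to 3′ on the strand of the gene. Capitals mark coding bases that one form has and the other lacks, or, for KDM2A, the start codon of the short form. Lower case marks the bases around them.
MBD3, chr2:76914095-76914214, plus strand: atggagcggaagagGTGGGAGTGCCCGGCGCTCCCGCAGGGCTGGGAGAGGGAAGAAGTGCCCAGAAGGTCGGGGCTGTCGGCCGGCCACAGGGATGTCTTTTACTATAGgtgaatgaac
SMARCA4, chr2:69806434-69806463, plus strand: ccctccttgcagTAGtagtggacgtcagct
DNMT1, chr2:69017826-69017855, minus strand: cttttctttaagCAGccgaagtctcatcta
KDM2A, chr2:5251884-5251913, minus strand: ATGaaaccagctccacggttaacacctgtg

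In MBD3 the 96 capital bases follow the start codon within the first coding exon. A form of 291 codons (XM_003353980.3) keeps them, and the form of 259 codons (XM_003122994.4) skips the 32 codons. This N-terminal part of the protein holds its methyl-CpG-binding domain. The shorter form held most of the TPM of the gene in both groups, at 78.6% ± 0.392 in CN and 77.7% ± 3.93 in PA (SD, n = 3). The longer form held 17.8%, 19% and 18.9% in CN and 20.2%, 21.5% and 16% in PA. The PA embryos lay on both sides of the controls (exact permutation test, two-sided, p = 0.8).

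CHD1 has coding forms of 1706 and 1794 codons. The transcript of 1706 codons (XM_021085400.1) held 39.1%, 46.5% and 47.3% of the TPM of the gene in CN and 59.4%, 50.7% and 43.8% in PA. The transcripts of 1794 codons together held 59.4%, 53.0% and 42.6% in CN and 37.8%, 47.0% and 55.7% in PA. PA1, the embryo with the least CHD1, had the largest share of the shorter form, and the groups overlapped for both forms (exact permutation test, two-sided, p = 0.3 for 1706 codons and 0.6 for 1794). The main transcript of 1794 codons (XM_021085398.1) alone held 44.5% ± 3.43 in CN and 38.0% ± 8.17 in PA (SD, n = 3).

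SMARCA4 and DNMT1 each have a pair of acceptor sites 3 bases apart, so that 1 codon is kept or skipped. The transcripts compared also differ at their ends, so their shares are not those of the acceptor sites alone. The SMARCA4 pair runs from 69717273 to 69810301 (5544 bases) and from 69717295 to 69810063 (5281 bases). The SMARCA4 form of 1614 codons that keeps the capital bases (XM_021083848.1) held 66.6%, 62.2% and 58.0% of the TPM in CN and 53.1%, 61.7% and 54.3% in PA. The form of 1613 codons (XM_021083850.1) held 13.7%, 15.9% and 17.6% in CN and 21.9%, 16.7% and 22.3% in PA. In both forms 2 of 3 PA embryos lay outside the CN range and PA2 within it (exact permutation test, two-sided, p = 0.2 for each). The main DNMT1 form, of 1611 codons (NM_001032355.1), held 73.1%, 75.1% and 67.2% in CN and 71.3%, 65.6% and 70.0% in PA. Another form, XM_021082029.1 of 1643 codons, starts 33 codons ahead and lacks the capital codon. It held 18.9%, 16.3% and 25.0% in CN and 24.0%, 28.1% and 21.6% in PA, again with overlap (exact permutation test, two-sided, p = 0.3).

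KDM2A has long forms of 1162 codons and short forms of 620 codons, whose start codon, the capitals of its line, is codon 543 of the long form. The short form XM_021077224.1 lacks 11 of the 20 coding exons of the long form. The long forms together held 54.2%, 59.1% and 71.9% of the TPM in CN and 63.4%, 67.1% and 72.8% in PA. The short forms together held 43.6%, 37.9% and 22.6% in CN and 32.3%, 27.4% and 21.9% in PA. CN3 resembled the parthenotes more than the other controls, and the groups overlapped (exact permutation test, two-sided, p = 0.4 and 0.3).

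The 2 main UHRF1 transcripts encode the same 822 codons and differ in first exons whose starts are 765 bases apart. The downstream start (XM_005661321.3) held 37.6%, 37.7% and 32.3% in CN and 39.0%, 42.3% and 37.6% in PA. PA3 and CN1 met at 37.6% (exact permutation test, two-sided, p = 0.2). In DOT1L the form of 1529 codons (XM_021084189.1) held 38.3%, 57.9% and 41.9% in CN and 58.4%, 64.3% and 48.8% in PA, with PA3 below CN2 (exact permutation test, two-sided, p = 0.2). The other DOT1L forms, of 1501 codons (XM_021084190.1) and 1475 codons (XM_021084191.1), held 30.5% ± 7.54 and 15.5% ± 4.51 in CN and 26.8% ± 3.48 and 12.5% ± 6.08 in PA (SD, n = 3). HDAC3 was almost a single transcript of 478 codons (XM_021077883.1), at 97.8% ± 1.20 in CN and 98.0% ± 1.66 in PA (SD, n = 3). KMT5B had a main form of 888 codons (XM_021082731.1) at 42.9% ± 5.66 in CN and 40.1% ± 2.71 in PA (SD, n = 3). Next came a noncoding KMT5B transcript (XR_002341419.1), at 22.3% ± 4.10 in CN and 20.1% ± 5.45 in PA (SD, n = 3).

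**Figure D3:**
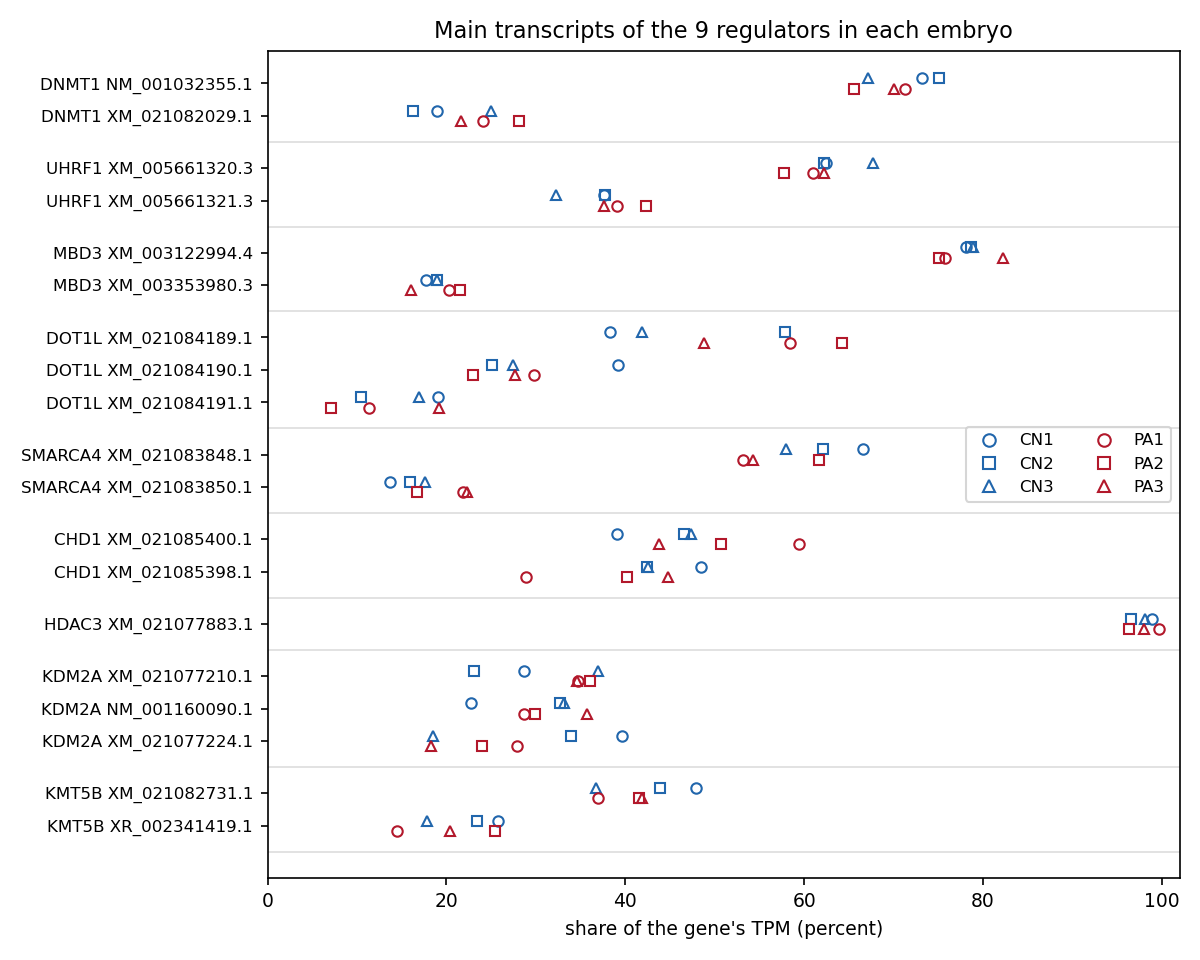
Share of the TPM of each gene, in percent, held by its 19 main transcripts in the 3 CN embryos (blue) and 3 PA embryos (red), with a symbol for each embryo. The shares of the groups overlap for every transcript.

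In all, 75 transcripts of the 9 genes were listed. Of these, 24 were at 0 in every embryo, 17 of them of SMARCA4, and 19 held a mean share of at least 10%. The shares of PA and CN overlapped for all 19, and the smallest exact permutation p-value was 0.691 after Benjamini-Hochberg adjustment. By edgeR, 0 of 46 transcripts tested had an adjusted p-value below 0.05, against 0.258% of 3487 transcripts, and 5 had an unadjusted p-value below 0.05, against 9.95% of all transcripts tested. The 5 were XM_005661321.3 of UHRF1, XM_021083850.1 of SMARCA4, XM_021085400.1 of CHD1 and a pair of minor transcripts, all higher in PA. DESeq2 called the minor pair. XM_021082053.1 of DNMT1, of 1511 codons, had 17, 22 and 18 counts in CN and 25, 251 and 242 in PA (edgeR log2 fold change 3.12, standard error 0.873, adjusted p = 0.277; DESeq2 adjusted p = 0.00445). PA1 was near the controls, and PA2 and PA3 were far above them. XR_002341421.1 of KMT5B had 3, 0 and 4 counts in CN and 25, 15 and 20 in PA (edgeR log2 fold change 3.00, standard error 1.07, adjusted p = 0.434; DESeq2 adjusted p = 0.00866). Both were at most 3.72% of the TPM of their gene in any embryo, and reads shared between transcripts make such estimates uncertain.

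Other chromatin genes of chromosome 2 were read from 6 lists by role, of which 33 genes were tested, beside the 9. Only 1 of the 33 passed, at a higher level in PA, against 2.12% of all genes tested that were higher. Of the 33, 25 had log2 fold changes above 0 and 8 below, with a median of 0.09, and 9 did not overlap between groups. The share that did not overlap, 27.3%, was near that of all genes (28.3%), and 53.0% of all genes were above 0 with a median of 0.02. GADD45B, a stress-induced gene that has been linked to DNA demethylation, had 51.7, 51.8 and 48.6 TPM in CN and 67.4, 80.9 and 73.0 TPM in PA. Every parthenote was above every control (log2 fold change 0.60, standard error 0.146, adjusted p = 0.0479). The call lay near the threshold and was lost without each embryo but CN1 in turn, with adjusted p-values of 0.170 without CN2, 0.176 without CN3, 0.0720 without PA1, 0.149 without PA2 and 0.0681 without PA3. The log2 fold change in these 5 fits was 0.53 to 0.68. The call was also lost with library totals (adjusted p = 0.0720) and with replicate number as a block (0.0663).

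**Figure D4:**
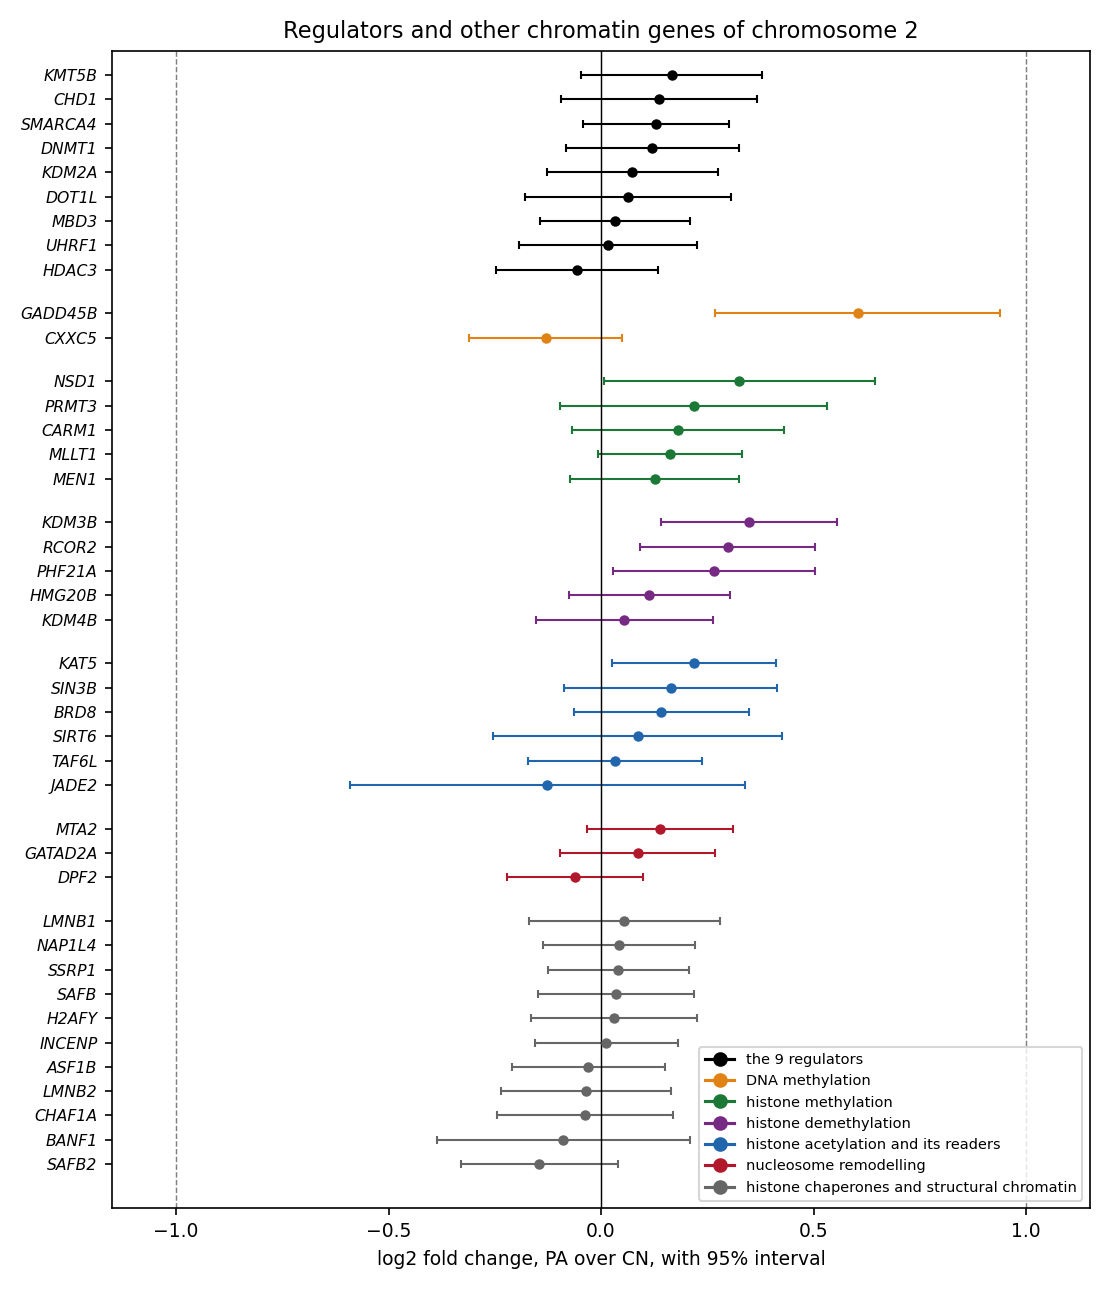
Log2 fold change, PA over CN, with its 95% interval for the 9 regulators (black) and other chromatin genes of chromosome 2 coloured by role, with 1 of the genes tested not shown and with dashed lines at the fold change threshold. The intervals of the 9 all span 0, and GADD45B is the farthest from 0.

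The other DNA methylation gene tested, CXXC5, a CpG-binding zinc finger protein, stood at 610 ± 61.6 TPM in CN and 530 ± 21.8 in PA (SD, n = 3; adjusted p = 0.394). Of 5 histone methylation genes 0 passed, with a median log2 fold change of 0.18. The most abundant were the arginine methyltransferase CARM1 (0.18, adjusted p = 0.394) and MLLT1, a reader that joins DOT1L in its complex (0.16, adjusted p = 0.264). Of 5 histone demethylation genes 0 passed, with a median of 0.27. They included HMG20B (0.11, adjusted p = 0.478) and RCOR2 (0.30, adjusted p = 0.0959), both partners of the demethylase LSD1, and 3 of the 5 had an unadjusted p-value below 0.05, against 21.2% of all genes. KDM3B, a histone H3 demethylase named after its values were seen, was the nearest to the threshold of the 33 after GADD45B (0.35, standard error 0.090, adjusted p = 0.0610). It passed with DESeq2 (adjusted p = 0.0203), without a filter on low counts (0.0177) and without the length offset (0.0467). It also passed with replicate number as a block (0.0457) and without PA1 (0.0423).

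Of 7 genes for histone acetylation and its readers 0 passed, with a median of 0.14, among them BRD8, a bromodomain protein that binds acetylated histones (0.14, adjusted p = 0.420). Of 3 nucleosome remodelling genes 0 passed, with a median of 0.09. MTA2, a NuRD subunit like MBD3, stood at 0.14 (adjusted p = 0.353) and DPF2, a subunit of the SWI/SNF complexes like SMARCA4, at -0.06 (adjusted p = 0.666). Of 11 histone chaperones and structural chromatin genes 0 passed, with a median of 0.01, among them BANF1, which bridges DNA and the nuclear envelope (-0.09, adjusted p = 0.742), and the lamin LMNB1 (0.05, adjusted p = 0.791).

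Cell makeup was read from 2 further lists, since in whole embryos fewer cells of a type and less RNA per cell cannot be told apart. DNMT1 and UHRF1 are known to be high in dividing cells. Of 12 proliferation genes 0 passed, with a median log2 fold change of -0.09. An unadjusted p-value below 0.05 was found for 1 of them, against 21.2% of all genes. Log2 fold changes were above 0 for 4 and below 0 for 8. The summed level of the 12 was 4974 to 5094 TPM in CN and 4227 to 4763 TPM in PA. H19 took 8.44% to 16.9% of the counts in PA and 6.88% to 7.74% in CN, and these sums were not rescaled without it. Against 6.54% of all genes tested, 2 of 5 tissue markers passed. They were PAX6 of neural tissue, higher in PA (0.84, standard error 0.094, adjusted p = 0.00159), and WT1 of intermediate mesoderm, lower in PA (-0.47, standard error 0.092, adjusted p = 0.0217). MYOD1 of muscle precursors (-0.43, adjusted p = 0.121), KLF1 of red cell precursors (-0.74, adjusted p = 0.127) and F2 of liver (-0.08, adjusted p = 0.846) did not pass. The summed level of the 5 was 2837 to 3368 TPM in CN and 2339 to 3283 TPM in PA, and none was at 0 in any embryo. Most of that sum was F2. The other 4 summed to 438 to 619 TPM in CN and 426 to 466 TPM in PA. That sum adds PAX6, whose mean TPM was higher in PA, to MYOD1, WT1 and KLF1, whose means were lower. Each of these 4 did not overlap between groups in normalised counts, against 28.3% of all genes tested. Their part in the levels of the 9 regulators and of GADD45B was not tested.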

How the data were processed

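RNA libraries of whole embryos (polyA-selected, TruSeq) were quantified by the authors with Salmon 1.3.0 against the pig transcriptome. The deposited tables give estimated counts, which are not normalised, and TPM values, which the authors took from Salmon, with effective lengths. The submitters' processing notes also name STAR 2.7.5, Picard, SAMtools and Sscrofa11.1. Transcripts (81496 listed, 6906 on chromosome 2) were joined to genes by NCBI Annotation Release 106 (names absent from it: 174), and counts and TPM were summed per gene. Counts were rounded and tested in R 4.3.3 with edgeR 4.0.16: TMM factors, a length offset, the default expression filter (minimum count 10), robust quasi-likelihood test, two-sided, Benjamini-Hochberg adjustment over 1652 genes. Intervals are at 95%. The procedure was tested on simulated data.

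Embryos were grouped by their labels. With 3100284 to 3573406 counts per embryo, each regulator had 2586 or more counts; intervals cover the spread between embryos, not the assignment of reads to transcripts. Within groups no 2 libraries agreed within sampling noise (chi-square per degree of freedom 5.88 to 97.4). Transcript shares were compared by exact permutation. Alternatives were DESeq2 1.42.0, library totals, other filters, no length offset, chromosome 2 genes alone, a replicate block, leaving out each embryo, and for TPM a pseudocount of 1 in place of 0.1 and scaling without H19, whose transcript was placed by its order in the tables. The regulators and lists were chosen with earlier results of these data known. Named genes are the 9, in each of the 6 role lists every gene that passed and the 2 of highest TPM, in the proliferation list only genes that passed, tissue markers, and for likeness the 3 with the highest Pearson correlation. A gene that this rule names in the acetylation list and 1 sequence are not reported here. Of 267 list genes 33 lay on chromosome 2 and were tested. The trophoblast marker PAG2 and the bisulfite data were not used here. Figures were drawn with matplotlib 3.10.9.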

Additional observations from a re-analysis of the deposited data

How the results depend on the processing

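The count of regulators called was 0 under all 13 alternatives, and the smallest adjusted p-value of any was 0.0972 (KMT5B without PA1). Of 117 log2 fold changes of the regulators under alternatives, 112 kept their sign. The exceptions were UHRF1 (-0.041) and MBD3 (-0.028) with library totals and, with each embryo left out, UHRF1 (-0.052 to 0.079, lowest without PA3), DOT1L (-0.028 to 0.15, lowest without CN1) and HDAC3 (-0.086 to 0.021, highest without CN1). TPM ratios and transcript shares moved by less than the spread between embryos, but 20 of 63 TPM ratios under alternatives lay on the other side of 1, in 7 of the 9 genes. Among the 33 other chromatin genes, 1 was called, but 0 with library totals, 2 with DESeq2 or without the length offset (GADD45B and KDM3B), 3 without a filter (also NSD1) and 0 to 1 with each embryo left out. GADD45B lost its call with library totals (adjusted p = 0.0720). The 48 genes that differed by both thresholds became 77 without a filter. The 108 at any fold change became 173 with DESeq2, 196 without a filter and 48 to 128 with each embryo left out, lowest without CN2 and also low without CN3 (54), PA2 (58) and PA3 (70). The 9 transcripts called became 16 with library totals, 245 with DESeq2, 37 with at least 10 counts in every embryo, 0 with the replicate block and 1 to 6 with each embryo left out; of the regulators' transcripts 0 became 2 with DESeq2. PA and CN embryos share replicate numbers but are different embryos. Deviations of same-numbered embryos correlated at 0.225, 0.112 and 0.0265, so the numbers were not taken as pairs. With the replicate block 43 genes passed both thresholds, 104 at any fold change and 0 of the 9; 1 list gene was called, KDM3B (adjusted p = 0.0457), and GADD45B was not (0.0663). The 95% intervals bound the changes of the regulators that these 3 embryos per group are compatible with and are not limits of detection.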
